A study of Rattus norvegicus with 44 samples.

Results

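A set of 10 genes that mark mature or reactive astrocytes were followed rat by rat in the dentate gyrus (DG) of the hippocampus: Gfap, Aqp4, Aldh1l1, Slc1a2, Slc1a3, Gja1, Vim, S100b, Serpina3n and Glul. They were chosen by name, and 9 of the 10 had values among the 18347 genes of the table. Serpina3n was not analysed here. All 9 passed the filter on low values (a mean normalized read count of at least 5), as did 15598 genes in all. The study asked how 2 senolytic treatments, given from middle age on, bear on the aging brain. RNA came from the DG of a single hemisphere of each of 44 male F344 rats, with 1 poly(A) library per rat. Young rats (YNG, n = 10) were 6 months old and received vehicle. The older rats, labelled as 12 months old, received vehicle (AV, n = 12), ABT-263 (AA, n = 11) or dasatinib plus quercetin (D + Q; ADQ, n = 11). The methods of the study put the older rats at 12 months when treatment began and at 18 months when tissue was taken. ABT-263, an inhibitor of BCL-2 family survival proteins, was given by gavage at 12 mg/kg. Dasatinib, a kinase inhibitor, was given at 1.2 mg/kg with quercetin, a plant flavonoid, at 12 mg/kg. Each cycle lasted 5 days, 8 cycles preceded the behavioral tests, and tissue was taken 2 weeks after a final round. The libraries held an estimated 10166691 to 24329811 reads (median 16320203), and the range of each group overlapped that of every other group. Granule cell markers, led by C1ql2 (46.6% of their summed value), were read in every rat, but markers of CA1, a neighbouring hippocampal field, were too. The granule cell sum was 14196 ± 1519 normalized reads in YNG (SD, n = 10) and the CA1 sum 9158 ± 4901 (SD, n = 10). AA rat 4107 had the highest CA1 sum and the lowest granule cell sum of all rats (43510 and 4185). AV rats 3989, 3890 and 4571 and AA rat 3996 followed with CA1 sums of 29163, 25826, 21176 and 19288, and the part of CA1 RNA in the differences was not tested. Gfap, Vim and Glul, the genes the results turn on, passed an unadjusted p below 0.05 against AV in both treated groups when any single rat was left out. Leaving out single rats does not address several rats with high CA1 sums at once. In the main fit none of these differences passed after adjustment. With part of the rats alone, each of these genes missed the threshold in at least 1 treated group against AV, as given below.

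Astrocytes tile the DG and take part in nearly every exchange between neurons and blood. They clear glutamate through the transporters encoded by Slc1a2 and Slc1a3 and turn it into glutamine with the enzyme encoded by Glul. They move water through aquaporin-4 at their vascular endfeet, and share ions and metabolites through gap junctions made of connexin 43, the product of Gja1. When tissue is injured, inflamed or aging, astrocytes enlarge their cytoskeleton of intermediate filaments, built from GFAP and vimentin, a change called reactive gliosis. GFAP is also made by the radial stem cells of the DG, and vimentin by endothelial cells and fibroblasts as well as glia. Aldh1l1 encodes a folate enzyme used as a broad astrocyte marker, and S100b encodes a calcium-binding protein that oligodendrocytes also make. In whole tissue, fewer astrocytes and less RNA of a gene per astrocyte cannot be told apart.

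The promoters of Gfap and Vim are shown because these genes encode the filament proteins and both differed between AV and each of the other groups. RefSeq promoter windows (GRCr8, 250 bases before to 50 bases after the start) were matched by symbol for all 10 genes, 15 windows in all. The Gfap window lies on the minus strand at chr10:88361612-88361911 and the Vim window on the plus strand at chr17:81577011-81577310. The sequences read 5' to 3' along the gene, and capitals mark matches, on either strand, to 4 of the motifs searched, the STAT, AP-1, SP1 and TATA box motifs.
Gfap: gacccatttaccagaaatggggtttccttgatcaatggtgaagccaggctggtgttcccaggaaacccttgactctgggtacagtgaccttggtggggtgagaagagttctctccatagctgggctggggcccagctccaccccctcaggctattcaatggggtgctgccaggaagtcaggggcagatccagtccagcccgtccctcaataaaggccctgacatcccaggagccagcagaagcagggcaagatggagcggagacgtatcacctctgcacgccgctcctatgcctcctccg
Vim: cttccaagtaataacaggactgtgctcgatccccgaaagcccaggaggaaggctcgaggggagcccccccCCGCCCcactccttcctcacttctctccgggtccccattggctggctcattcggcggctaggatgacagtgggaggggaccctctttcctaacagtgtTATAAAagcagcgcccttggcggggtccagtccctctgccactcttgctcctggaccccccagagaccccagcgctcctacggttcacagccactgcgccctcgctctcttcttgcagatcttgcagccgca
The window of Vim held an SP1 match (GGGCGG, here as its reverse complement) and a TATAAA match that starts 82 bases before the start site, and the window of Gfap held no match to any of the 8 motifs searched. Across all 33469 windows the share with a match was 8.87% for STAT (TTCNNNGAA), 7.33% for AP-1 (TGANTCA), 33.1% for SP1 (GGGCGG), 14.2% for the TATA box (TATAAA), 1.83% for CRE (TGACGTCA), 72.1% for the E-box (CANNTG), 0.0418% for the full palindrome of NFI and 0.111% for the consensus of NF-kB. The motifs can overlap one another. Among the 10 genes, 7 had an E-box match, 5 an SP1 match and 1 each a STAT, AP-1 or TATA box match, and 0 matched CRE, NFI or NF-kB. Percent GC was 58.7% in the Gfap window and 62.0% in the Vim window.

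In the vehicle groups, 4 of the 9 genes were higher in AV than in YNG and 0 were lower. These were Vim, S100b, Gfap and Gja1. Over all genes tested, 21.3% passed the same threshold in either direction, 10.6% as higher and 10.7% as lower. The threshold is that of the study, an unadjusted p below 0.05, here from limma on log2(normalized read count + 1), and every log2 difference below is on that scale. After Benjamini-Hochberg adjustment over the 15598 genes, Vim alone of the 9 passed, against 2.35% of all genes. The median log2 difference of the 9 genes was 0.19, and that of all genes was -0.0017. AA and ADQ were each compared with the same AV rats, and in each comparison 3 of the 9 genes were lower than in AV and 0 were higher. Gfap, Vim and Glul were the 3 genes in both. Of all genes, 4.51% passed between AA and AV (1.4% as higher and 3.1% as lower) and 9.32% between ADQ and AV (3.42% as higher and 5.9% as lower). The median log2 difference of the 9 genes was -0.14 in AA (all genes 0.00093) and -0.14 in ADQ (all genes 0.0081). No gene of the table passed after adjustment in these 2 comparisons (0 of 15598 by limma, against 703 and 1454 at the unadjusted threshold; with array weights 0 and 25), so the member differences between treated and vehicle rats rest on unadjusted p values. Between AA and ADQ, 0 of the 9 genes passed by limma at the unadjusted threshold, where 4.53% of all genes did (2.13% as higher and 2.4% as lower).

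**Figure D1:**
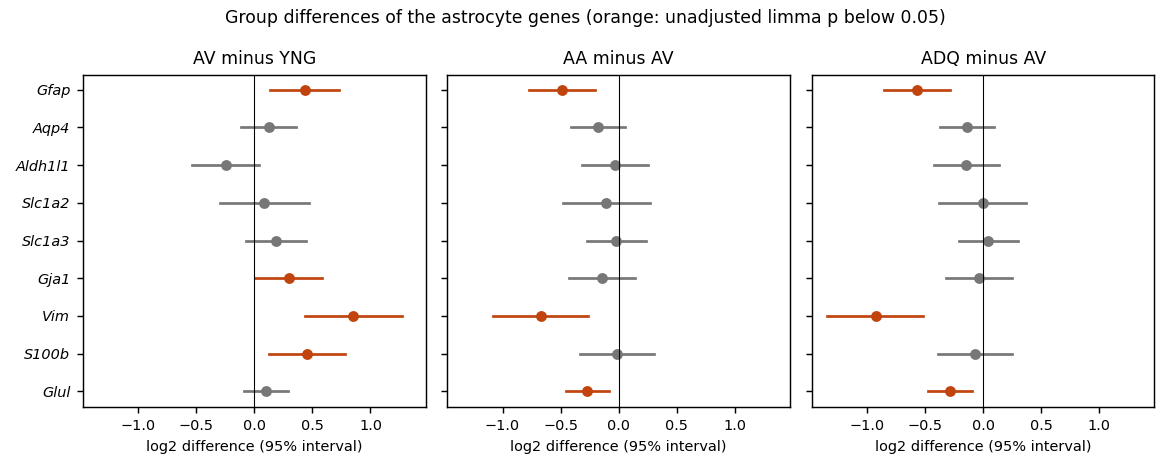
Log2 difference of each astrocyte gene (rows) for AV minus YNG, AA minus AV and ADQ minus AV, with the 95% interval of the limma fit over 44 rats; orange marks an unadjusted p below 0.05. Vim lies farthest from 0 in each panel, at 0.85, -0.67 and -0.93, and Gfap and Glul are the other genes that passed below 0 in both treated groups.

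Gfap, the filament protein by which astrocytes are usually stained, ranged from 13223 to 29196 normalized reads in YNG (median 24538). In AV it ranged from 17749 to 51346 (median 29205), in AA from 16819 to 33504 (median 20128) and in ADQ from 15463 to 24072 (median 21044). AV rats 3989 and 3999 stood highest at 51346 and 51280, and 6 of 12 AV rats exceeded the highest YNG rat, while every group overlapped every other. All 11 ADQ rats lay below the AV median, as did 9 of 11 AA rats. The means were 22783 ± 5317 in YNG (SD, n = 10), 31382 ± 10576 in AV (SD, n = 12), 21825 ± 5289 in AA (SD, n = 11) and 20300 ± 2583 in ADQ (SD, n = 11). Gfap was 1.35-fold higher in AV than in YNG, a log2 difference of 0.43 (SE 0.146, unadjusted p = 0.00476, adjusted p = 0.0928). Relative to AV it fell by 0.49 on the log2 scale in AA (SE 0.142, unadjusted p = 0.00131, adjusted p = 0.816) and fell by 0.57 in ADQ (SE 0.142, unadjusted p = 0.000225, adjusted p = 0.134). The difference from YNG did not pass in AA (-0.05, 95% interval -0.35 to 0.25) or ADQ (-0.14, 95% interval -0.44 to 0.16), and these intervals include changes in both directions. Without AV rat 3989, the log2 differences were 0.36 for AV against YNG, -0.42 for AA against AV and -0.50 for ADQ against AV, and all of them passed the unadjusted threshold.

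Vim, which encodes vimentin, the second filament protein of reactive astrocytes, had the largest differences of the 9 genes in both directions. It ranged from 227 to 650 normalized reads in YNG (median 402) and from 425 to 1899 in AV (median 524). All 12 AV rats lay above the YNG median and 5 of 12 above the highest YNG rat. In AA the range was 290 to 807 (median 388), and in ADQ 286 to 468 (median 357). In ADQ, 8 of 11 rats were below the lowest AV rat, and in AA 6 of 11 were. The AV values did not form 1 cluster: rats 3989, 3999, 4568 and 4009 had 1899, 1260, 1204 and 1182 normalized reads, rat 4571 had 737, and the other 7 lay between 425 and 544. The means were 407 ± 129 in YNG (SD, n = 10), 804 ± 472 in AV (SD, n = 12), 461 ± 153 in AA (SD, n = 11) and 374 ± 62.6 in ADQ (SD, n = 11). Vim was 1.81-fold higher in AV than in YNG (log2 difference 0.85, SE 0.209, unadjusted p = 0.000177, adjusted p = 0.0171). Relative to AV it fell by 0.67 on the log2 scale in AA (SE 0.204, unadjusted p = 0.00195, adjusted p = 0.832) and fell by 0.93 in ADQ (SE 0.204, unadjusted p = 4.06e-05, adjusted p = 0.134), and it did not differ past the threshold between either treated group and YNG. Without AV rat 3989 these log2 differences were 0.72, -0.54 and -0.795, each still past the unadjusted threshold.

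**Figure D2:**
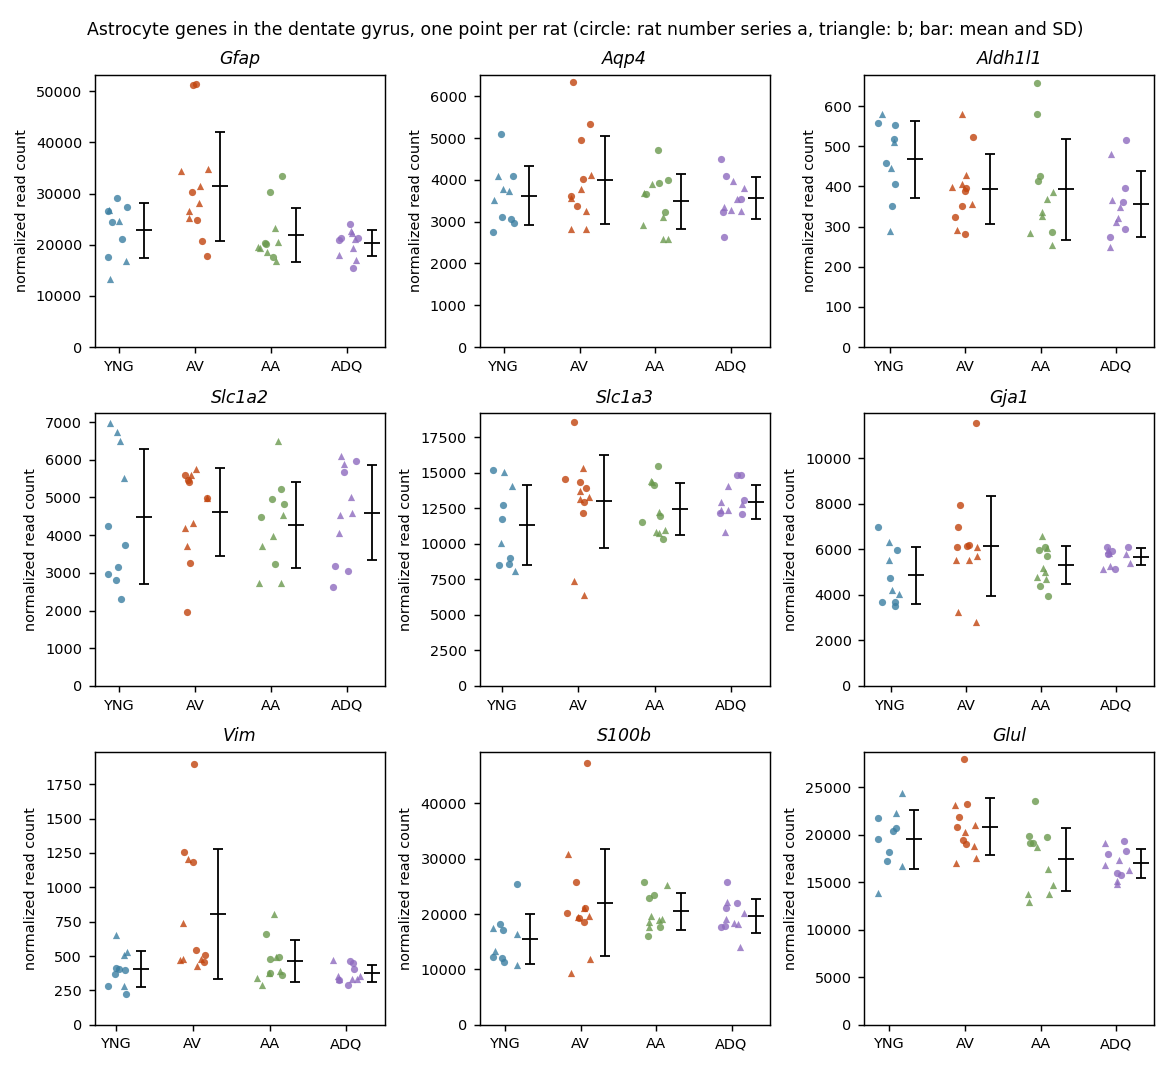
Normalized read count (linear axis from 0) of each astrocyte gene in every rat, by group; circles are rats of rat number series a, triangles series b, and bars give the group mean and SD. In Vim the AV rats spread from 425 to 1899 while the ADQ rats lie between 286 and 468.

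Glul, which encodes glutamine synthetase, ranged from 13848 to 24440 normalized reads in YNG (median 20008), from 16983 to 27940 in AV (median 20537), from 12965 to 23523 in AA (median 18718) and from 14861 to 19337 in ADQ (median 16827). All 11 ADQ rats were below both the AV and the YNG median, and 6 of 11 were below the lowest AV rat. Glul fell by 0.27 on the log2 scale in AA relative to AV (SE 0.0924, unadjusted p = 0.00548, adjusted p = 0.999) and fell by 0.29 in ADQ (SE 0.0924, unadjusted p = 0.00334, adjusted p = 0.266). Against YNG, Glul did not pass the threshold in AV (0.10, 95% interval -0.09 to 0.29), AA (-0.17, 95% interval -0.37 to 0.02) or ADQ (-0.19, 95% interval -0.38 to 0.01). The treated groups differed from older vehicle rats here, while older vehicle rats had not differed past the threshold from young ones.

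The glutamate transporter genes did not pass the threshold in any comparison. Slc1a2 (GLT-1) had means of 4494 ± 1785 in YNG (SD, n = 10), 4608 ± 1162 in AV (SD, n = 12), 4261 ± 1141 in AA (SD, n = 11) and 4599 ± 1256 in ADQ (SD, n = 11), which lie closer to each other than the spread within any group. The 95% interval of the AV minus YNG log2 difference was -0.30 to 0.47. Slc1a3 (GLAST) ranged from 8091 to 15175 in YNG (median 10891), 6421 to 18561 in AV (median 13485), 10331 to 15493 in AA (median 11968) and 10811 to 14842 in ADQ (median 12766). Its log2 difference from YNG was 0.19 in AV (95% interval -0.07 to 0.45), 0.17 in AA (95% interval -0.10 to 0.43) and 0.23 in ADQ (95% interval -0.03 to 0.50).

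Of the genes for water and gap junction traffic, Aqp4 did not pass the threshold in any comparison and Gja1 passed in 1. Aqp4 means were 3623 ± 701 in YNG (SD, n = 10), 3999 ± 1058 in AV (SD, n = 12), 3485 ± 662 in AA (SD, n = 11) and 3565 ± 509 in ADQ (SD, n = 11), and the 95% interval of the AV minus YNG log2 difference was -0.12 to 0.36. Gja1 ranged from 3512 to 6967 in YNG (median 4470), 2819 to 11544 in AV (median 6121), 3972 to 6579 in AA (median 5180) and 5137 to 6113 in ADQ (median 5810). All 11 ADQ rats were above the YNG median and below the AV median. Gja1 was 1.23-fold higher in AV than in YNG (log2 difference 0.30, SE 0.144, unadjusted p = 0.0452, adjusted p = 0.224). Without AV rat 3989, the rat at 11544, the difference was 0.21 and no longer passed (unadjusted p = 0.125).

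S100b was higher than in YNG in each of the older groups, while Aldh1l1 was lower in ADQ and in the mean of the older groups. S100b ranged from 10776 to 25494 normalized reads in YNG (median 14868), 9419 to 47312 in AV (median 19888), 16063 to 25740 in AA (median 19088) and 14116 to 25690 in ADQ (median 19059). All 11 AA rats, 10 of 11 ADQ rats and 10 of 12 AV rats lay above the YNG median, and the groups overlapped. The log2 differences from YNG were 0.45 in AV (SE 0.162, unadjusted p = 0.00795, adjusted p = 0.113), 0.44 in AA (SE 0.166, unadjusted p = 0.0113, adjusted p = 0.0913) and 0.38 in ADQ (SE 0.166, unadjusted p = 0.0257, adjusted p = 0.123). Without YNG rat V12 the ADQ difference was 0.33 and did not pass (unadjusted p = 0.0572). Over the mean of the older groups against YNG, S100b was 1.34-fold higher (log2 difference 0.42, SE 0.137, adjusted p = 0.0338). Neither treated group differed from AV past the threshold (95% intervals -0.33 to 0.31 for AA and -0.39 to 0.25 for ADQ).

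Aldh1l1 was the least expressed of the 9 genes along with Vim, by normalized reads uncorrected for length, with means of 467 ± 95.4 in YNG (SD, n = 10), 393 ± 87.6 in AV (SD, n = 12), 393 ± 126 in AA (SD, n = 11) and 356 ± 82.4 in ADQ (SD, n = 11). In ADQ 10 of 11 rats were below the YNG median of 484. Aldh1l1 fell by 0.39 on the log2 scale in ADQ relative to YNG (SE 0.147, unadjusted p = 0.0103, adjusted p = 0.0785) and fell by 0.31 in the mean of the older groups (SE 0.121, unadjusted p = 0.0148, adjusted p = 0.0726). The separate differences of AV (-0.25, unadjusted p = 0.0924) and AA (-0.28, unadjusted p = 0.0636) did not pass. Of the 9 genes, 1 was higher and 0 lower in AA against YNG (26.6% of all genes passed, 12.6% as higher and 14.1% as lower), 1 was higher and 1 lower in ADQ against YNG (28.1%, with 13.5% and 14.6%), and 1 was higher and 1 lower in the older groups against YNG (32.4%, with 15.7% and 16.7%). After adjustment 0 of the 9 passed in AA or ADQ against YNG by limma, where 3.85% and 7.08% of all genes did, and S100b alone passed in the older groups, where 14.9% did. These shares of 1 or 2 in 9 are no larger than the background. When libraries were scaled to their totals, the median log2 difference of all genes moved to 0.10 for AV, 0.15 for AA and 0.15 for ADQ against YNG, and the Aldh1l1 difference in ADQ was then -0.25 and did not pass (unadjusted p = 0.0825).

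In most of the 9 genes the AV rats varied most. The coefficient of variation was largest in AV for 6 of the 9 genes and smallest in ADQ for 7 of the 9. The share of all genes with this order is not given, so these counts do not set the 9 genes apart from other genes. For Vim it was 58.8% in AV, 31.6% in YNG, 33.3% in AA and 16.7% in ADQ, and for Gja1 it was 35.8%, 25.6%, 15.7% and 6.54% in the same order. AV rat 3989 ranked first of 12 in Gfap, Aqp4, Slc1a3, Gja1, Vim, S100b and Glul, and last in Slc1a2. Without it AV still had the largest coefficient of variation in 5 of the 9 genes, with 48.1% for Vim and 30.2% for Gfap. Differences in spread were described and not tested.

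Within groups the 9 genes did not vary as a single block. After subtracting group means, the log2 values of Slc1a3, Gja1 and S100b varied closely together over the 44 rats (Pearson's r 0.88 for Slc1a3 with Gja1, 0.85 for Slc1a3 with S100b and 0.88 for Gja1 with S100b). Aqp4 joined them with r of 0.70 to Gja1. Gfap instead varied with Glul (r 0.68) and Vim (r 0.58), and was near 0 with Slc1a3 (r -0.07) and Gja1 (r 0.07). Aldh1l1 varied with Glul (r 0.67) and against Gja1 (r -0.35), and the highest r of Slc1a2 with any of them was 0.25, with Aqp4. All points share the libraries and their depth. The number of estimated reads correlated with Gfap at r 0.51 and with Slc1a2 at r -0.47, less group means, and the part of depth in the differences was not tested.

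By the fixed rule of likeness, the genes nearest to 8 of the members among 13704 genes with a mean of at least 20 were given by the same within-group correlation over 44 rats. Nearest to Gfap were Gpnmb (r 0.88), Anxa3 (r 0.86) and Ndrg2 (r 0.85). Nearest to Vim were Vwf (r 0.87), Esam (r 0.87) and Lama4 (r 0.84), of which the first 2 are well-known endothelial genes. S100b was nearest to Mlc1 (r 0.91), Gja1 (r 0.88) and Opalin (r 0.87), the last an oligodendrocyte gene. Slc1a2 was nearest to Lifr (r 0.92), Aqp4 to Gpm6b (r 0.91), Slc1a3 to Gja1, Glul to Tln1 (r 0.90) and Aldh1l1 to Ckap4 (r 0.81).

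A ratio of 2 genes in the same library is unaffected by the scaling of that library, so each of the 8 other genes was also set against Aldh1l1. The log2 difference of Aldh1l1 itself from YNG was -0.25 for AV, -0.28 for AA and -0.39 for ADQ, and each ratio against YNG holds this difference of its denominator. Over 8 ratios and 6 comparisons, 8 of 48 differences passed after Benjamini-Hochberg adjustment and 15 of 48 before it (two-sided permutation tests with 100000 resamples). The Vim to Aldh1l1 ratio was 2.14-fold higher in AV than in YNG (log2 ratio 0.87 ± 0.911 against -0.23 ± 0.339, SD, n = 12 and 10, permutation p = 0.0007, adjusted p = 0.0294). The Gfap to Aldh1l1 ratio was 1.60-fold higher in AV (permutation p = 0.00154, adjusted p = 0.0294) and the Glul ratio 1.27-fold higher (permutation p = 0.00436, adjusted p = 0.0497), where Glul itself did not pass (0.10) and most of the ratio's log2 difference of 0.35 was that of Aldh1l1. In ADQ against YNG the ratio of S100b was 1.71-fold higher (permutation p = 0.00184, adjusted p = 0.0294), that of Gja1 1.57-fold and that of Slc1a3 1.54-fold, both at adjusted p = 0.0497. Gja1 and Slc1a3 did not pass there themselves (0.26 and 0.23), and the larger share of both ratio differences (0.65 and 0.62) was that of Aldh1l1. In AA against YNG the ratios of Vim and S100b were 1.38-fold and 1.64-fold higher, also at adjusted p = 0.0497. Vim itself did not pass there, and the larger share of its ratio difference (0.46) was that of Aldh1l1. In AA against AV 0 of 8 ratios passed after adjustment and in ADQ against AV 0 of 8 (permutation tests; 2 of 8 in each before adjustment), where the Vim ratio in ADQ was 0.582 of that in AV (permutation p = 0.0127, adjusted p = 0.0677) and the Gfap ratio 0.745 (permutation p = 0.0364, adjusted p = 0.127). Of the passing values, 5 sit at adjusted p = 0.0497, just inside the threshold, and the count without single rats ran from 0 (without YNG rat V2) to 11 (without AV rat 4010).

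Slc1a2, Gja1, Vim, S100b and Glul each had a single transcript row, and the others were summed over rows. One row held 98.5% of the Gfap value, and its share ran from 97.6% to 99.5% over rats. The split of Aldh1l1 varied more between rats, since its main row held 68.3% on average and from 28.5% to 95.8% in single rats. With the row of the highest mean in place of the sum, the ADQ minus YNG difference of Aldh1l1 was -0.26 and did not pass (unadjusted p = 0.163). The main rows of Slc1a3 and Aqp4 held 61.4% and 51.4%.

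Some other genes of reactive astrocytes were higher in AV than in YNG as well, against a background of 10.6% of all genes higher there and of 3.1% and 5.9% lower in AA and ADQ against AV. Of 11 tested pan-reactive genes, a list that itself holds Gfap and Vim, 6 were higher and 0 lower in AV against YNG, with a median log2 difference of 0.43 (all genes -0.0017). Of the same 11, 0 were higher and 5 lower in AA against AV, and 0 higher and 8 lower in ADQ against AV, with medians of -0.41 and -0.47. Of the 9 genes of the list other than Gfap and Vim, 4 were higher in AV against YNG, 3 were lower in AA and 6 in ADQ against AV. Without AV rat 3989 these counts were 4, 1 and 3, and with series b alone, a set of rat numbers described below, 2, 1 and 1 of 7. In series b 3.74% of all genes were higher in AV against YNG. In AA and ADQ against AV, 4.21% and 9.8% of all genes passed there, with 1.59% and 5.02% as higher. The medians of the list without Gfap and Vim were 0.31, -0.36 and -0.46 over all rats and 0.30, -0.25 and -0.35 with series b alone. Osmr, the receptor for oncostatin M, had 5.25 ± 2.91 normalized reads in YNG (SD, n = 10), 19.6 ± 14.2 in AV (SD, n = 12), 12.3 ± 3.23 in AA (SD, n = 11) and 11 ± 6.24 in ADQ (SD, n = 11), all low. Its AV minus YNG log2 difference was 1.60 (adjusted p = 0.00199), and relative to AV it fell by 0.71 in ADQ (unadjusted p = 0.0201), with -0.42 in AA (unadjusted p = 0.162). Aspg rose from 41.8 ± 11.7 in YNG (SD, n = 10) to 84.3 ± 31.6 in AV (SD, n = 12; log2 difference 0.95, adjusted p = 0.00497) and was lower than in AV in AA (-0.41, unadjusted p = 0.0405) and ADQ (-0.47, unadjusted p = 0.0187). Hspb1, a small heat shock protein gene, was higher in AV than in YNG by 0.73 (unadjusted p = 0.00144, adjusted p = 0.0559) and fell by 0.46 in ADQ relative to AV (unadjusted p = 0.0344).

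Of 11 tested genes of the list associated with neurotoxic-type reactivity, 8 were higher and 0 lower in AV against YNG, with a median of 0.71, where 10.6% of all genes were higher and 10.7% lower. In AA against AV 0 were higher and 4 lower, and in ADQ against AV 0 were higher and 8 lower, where 3.1% and 5.9% of all genes were lower. These counts were 8, 4 and 7 without AV rat 3989 and 4, 3 and 4 with series b alone. In series b 3.74% of all genes were higher in AV against YNG. In AA and ADQ against AV, 4.21% and 9.8% of all genes passed there, with 1.59% and 5.02% as higher. The list medians were 0.71, -0.33 and -0.505 over all rats and 0.485, -0.22 and -0.49 with series b alone. Serping1, an inhibitor of complement C1, had 59.9 ± 21.7 normalized reads in YNG (SD, n = 10) and 202 ± 192 in AV (SD, n = 12), a log2 difference of 1.39 (adjusted p = 0.00535), and it was lower than in AV in AA (-0.85, unadjusted p = 0.00463) and ADQ (-1.03, unadjusted p = 0.000775). C3, C4a and C4b, complement genes that microglia and other cells also make, were higher than in YNG in all older groups after adjustment. The C3 log2 differences were 1.12 in AV, 0.79 in AA and 0.68 in ADQ. C4a and C4b are near-identical copies, so the split of reads between them is uncertain. Of 11 ischemia-type genes, 2 were higher and 1 lower in AV against YNG, a share near the background, and Tm4sf1 led with 0.68 (adjusted p = 0.0242). In ADQ against AV 2 of these were higher, among them Ptgs2 (0.42, unadjusted p = 0.00859), and 1 was lower, where 3.42% and 5.9% of all genes were. In the JAK STAT3 list 4 of 12 were higher and 0 lower in AV against YNG, and 3 were higher in AA and 3 in ADQ against YNG, where 12.6% and 13.5% of all genes were. Against AV, 0 of the 12 passed in AA by limma at the unadjusted threshold, where 4.51% of all genes did. In ADQ 1 was higher and 2 lower than in AV, where 3.42% and 5.9% of all genes were. Stat3, the transcription factor of this pathway, was higher in AV than in YNG by 0.31 (adjusted p = 0.0191).

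A list of further astrocyte-enriched genes held lower and no higher genes in the older groups in the main fit. Under another scaling of the libraries or within series a, a few were higher in AV or AA, and 0 in ADQ. Of 15 tested further astrocyte-enriched genes, 0 were higher and 4 lower in AV, 0 and 6 in AA, and 0 and 10 in ADQ, each against YNG, where 10.7%, 14.1% and 14.6% of all genes passed as lower. The medians were -0.11, -0.20 and -0.29. With upper quartile scaling 1 was higher and 3 lower in AV, where 21.1% of all genes passed, 12.9% as higher. Scaled to library totals, which moved the median of all genes up against YNG, 2 were higher and 3 lower in AV. In AA these counts were 1 and 3 and in ADQ 0 and 6, and the list medians were -0.0045, -0.05 and -0.15. Under this scaling 22.3%, 33.2% and 33.5% of all genes passed in AV, AA and ADQ, with 18.1%, 28.3% and 27.7% as higher. Within series a 3 were higher and 4 lower in AV, 1 and 5 in AA, and 0 and 8 in ADQ. There 33.4%, 28.5% and 27.3% of all genes passed, with 15.2%, 12.5% and 12.3% as higher. With series b alone 2 were lower in AV, 3 in AA and 3 in ADQ. There 6.28%, 12.4% and 6.87% of all genes passed, with 3.74%, 7.21% and 4.32% as higher. Over all rats Btbd17 was lower than in YNG in each older group (log2 difference -0.75 in AV with adjusted p = 0.0382, -0.73 in AA with adjusted p = 0.045, and -0.91 in ADQ with adjusted p = 0.016). Ppp1r3c, a glycogen-targeting subunit of protein phosphatase 1, fell by 0.49 in AA and fell by 0.47 in ADQ relative to YNG (adjusted p = 0.0232 and 0.0169), and its AV value (-0.20, unadjusted p = 0.0772) did not pass. Mfge8, Acsbg1 and Aldoc were among the genes lower in ADQ (adjusted p = 0.0223, 0.0258 and 0.0472). Slc25a18, a mitochondrial glutamate carrier gene, was lowest in AV (-0.75 against YNG, adjusted p = 0.0107) and higher in AA than in AV (0.45, unadjusted p = 0.01).

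Of 12 genes of astrocyte identity, 4 were lower in AV, 6 in AA and 5 in ADQ against YNG, where 10.7%, 14.1% and 14.6% of all genes were lower, and 1 was higher in AA, where 12.6% of all genes were. Scaled to library totals, 2 were lower and 2 higher in AV, where 22.3% of all genes passed, 18.1% as higher. With series b alone 1 was lower in AV, 4 in AA and 2 in ADQ. In series b 6.28%, 12.4% and 6.87% of all genes passed in these groups against YNG, with 3.74%, 7.21% and 4.32% as higher. Nfia, a factor needed for gliogenesis, had 1200 ± 510 normalized reads in YNG (SD, n = 10), 823 ± 349 in AV (SD, n = 12), 623 ± 89.3 in AA (SD, n = 11) and 708 ± 127 in ADQ (SD, n = 11), with log2 differences of -0.52 (adjusted p = 0.0933), -0.84 (adjusted p = 0.0178) and -0.66 (adjusted p = 0.0262). Zbtb20, a factor that neurons of the hippocampus also express, fell by 0.75 in AV and fell by 0.79 in AA (adjusted p = 0.0289 and 0.0311), and Lhx2 fell by 0.41 in AA (adjusted p = 0.0317). Of 12 potassium, water and gap junction genes, 4 were lower and 0 higher in AA and in ADQ against YNG, and 1 was lower and 2 higher in AV. Scaled to library totals, which moved the median of all genes up against YNG, 5 were higher and 3 lower in AA. In ADQ 4 were then higher and 3 lower. Under this scaling 33.2% and 33.5% of all genes passed in AA and ADQ against YNG, with 28.3% and 27.7% as higher. The list medians moved with the median of all genes, from 0.09 to 0.24 in AA and from 0.05 to 0.19 in ADQ, and kept their sign. Within series a alone, 5 were higher and 3 lower in AA, 5 and 1 in AV, and 0 and 4 in ADQ. There 28.5%, 33.4% and 27.3% of all genes passed in AA, AV and ADQ, with 12.5%, 15.2% and 12.3% as higher. Within series b 0 genes of the list were higher and 1 lower in each older group. The list medians in AV, AA and ADQ against YNG were 0.24, 0.22 and 0.08 in series a. In series b they were -0.05, -0.24 and -0.14, so their sign changed with the rats used. In ADQ the lower genes included the connexin 30 gene Gjb6 (-0.37, adjusted p = 0.0465) and the potassium channel gene Kcnj16 (-0.62, adjusted p = 0.0276). Kcnj16 was also lower than in AV in AA (-0.36, unadjusted p = 0.0371) and ADQ (-0.49, unadjusted p = 0.00472).

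**Figure D3:**
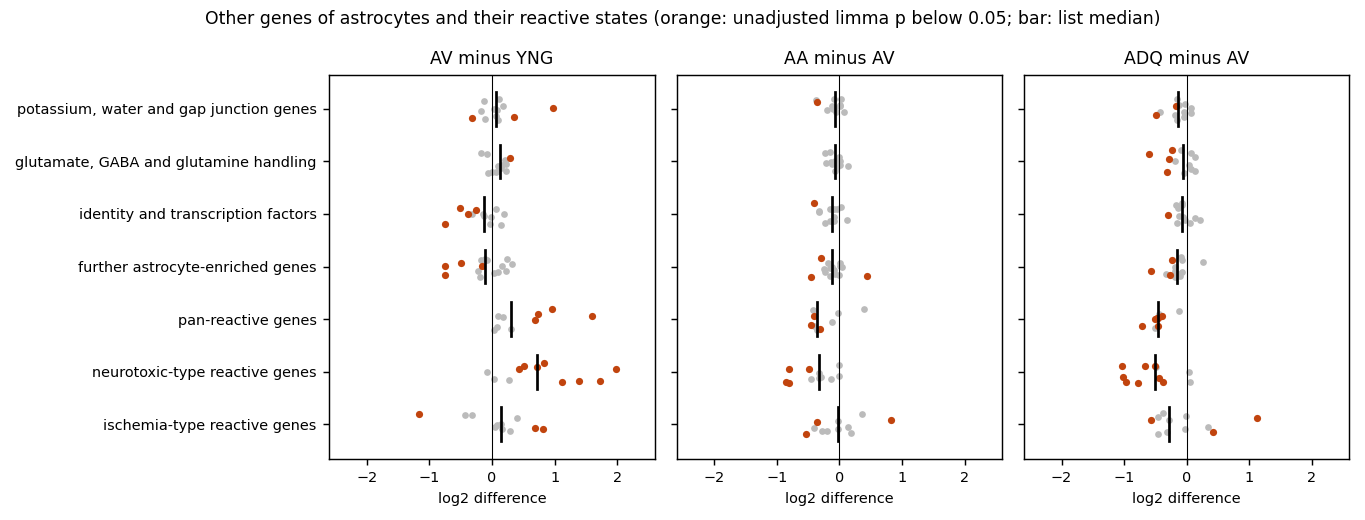
Log2 difference of each tested gene (points) of 7 lists of astrocyte genes, without the 9 members, for AV minus YNG, AA minus AV and ADQ minus AV; orange points passed the unadjusted threshold and bars are list medians. The medians of the pan-reactive and neurotoxic-type lists lie to the right of 0 in AV against YNG and to the left of 0 in both treated groups against AV.

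The remaining lists are read against 10.6% of all genes higher and 10.7% lower in AV against YNG, 13.5% and 14.6% in ADQ against YNG, and 3.1% and 5.9% lower in AA and ADQ against AV. Among them, 1 of 12 glutamate and GABA handling genes was higher in AV against YNG and 4 were lower in ADQ against AV, among them the glutamine transporter gene Slc38a3 (-0.32, unadjusted p = 0.00319). Of 8 lipid carrier genes 2 were higher and 1 lower in each older group against YNG. The lower one was Apoe, the main lipid carrier of the brain (-0.33 in AV with adjusted p = 0.207, -0.45 in AA with adjusted p = 0.0742, and -0.52 in ADQ with adjusted p = 0.0383). Of 11 synapse-shaping genes 2 were higher in AV against YNG, and 1 was lower in each treated group against AV and against YNG. Of 11 intermediate filament genes other than Gfap and Vim, 2 were higher and 1 lower in AV against YNG, and 0 passed in either treated group against AV at the unadjusted threshold in limma. Nes, the filament gene of stem cells and reactive glia, was higher in AV than in YNG by 0.63 (unadjusted p = 0.00225, adjusted p = 0.0681). Of 6 other S100 genes, 0 passed in AV against YNG by limma at the unadjusted threshold, and 2 were lower in ADQ against YNG, of which S100a13 fell by 0.83 (adjusted p = 0.0313).

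Markers of some other cell types moved with these groups as well. Of all genes, 10.6% were higher and 10.7% lower in AV against YNG, and 3.1% and 5.9% lower in AA and ADQ against AV. All 7 tested endothelial markers were higher in AV than in YNG (median 0.65), 3 were lower in AA than in AV and 6 in ADQ than in AV. Within series a, where 15.2% of all genes were higher, 7 of 7 were higher in AV than in YNG. Within series b, where 6.28% of all genes passed, 0 of 7 passed by limma at the unadjusted threshold (median -0.03). Without AV rat 3989, 7 were higher in AV against YNG, 0 lower in AA and 4 lower in ADQ against AV by limma at the same threshold. Scaled to library totals, where 4.24% of all genes passed in AA against AV, 0 endothelial markers were lower there by limma (median -0.29). Their summed value was 2508 ± 1073 in YNG (SD, n = 10), 4175 ± 2011 in AV (SD, n = 12), 3044 ± 559 in AA (SD, n = 11) and 2640 ± 193 in ADQ (SD, n = 11). Cldn5 made up 36.8% of the sum and no marker was at 0 in any rat. Flt1, Kdr and Cdh5, receptors and a cadherin of endothelium, were higher in AV by 1.06, 1.28 and 0.88 (adjusted p = 0.00504, 0.0108 and 0.0123). The 4 highest summed endothelial values in AV, 9672, 5490, 5215 and 5042, came from rats 3989, 4568, 3999 and 4009, which also had the 4 highest values of Vim. Vim varied with the mean log2 level of the endothelial markers within groups at r 0.85 over 44 rats, and with that of pericytes and smooth muscle at r 0.80. The part of endothelial RNA in the Vim differences was not tested.

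Of 9 oligodendrocyte markers, 8 were higher in AV than in YNG (median 0.43), 0 were lower in AA and 5 in ADQ against AV. Mbp was 65.0% of their sum, which was 73522 ± 23867 in YNG (SD, n = 10), 99285 ± 40591 in AV (SD, n = 12), 88784 ± 34781 in AA (SD, n = 11) and 70715 ± 7261 in ADQ (SD, n = 11). S100b varied with this list at r 0.61. Of 10 microglia markers, 3 were higher in AV against YNG, and 2 were lower in AA and 7 in ADQ against AV. Their sum was 6799 ± 1298 in YNG (SD, n = 10), 7897 ± 1741 in AV (SD, n = 12), 6806 ± 1197 in AA (SD, n = 11) and 6157 ± 591 in ADQ (SD, n = 11), Csf1r was 29.6% of it, and Gfap varied with the list at r 0.77. Of 5 red blood cell markers (Hbb 56.1% of the sum; Slc4a1 at 0 in at least 1 rat), 1 was higher in AV against YNG, and 2 were lower in AA and 5 in ADQ against AV. Their sum reached 68726 in AV rat 3989, where the AV median was 7985 and the YNG median 9457, and Gfap varied with this list at r 0.65.

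The lists that follow are read against the 21.3% of all genes that passed in AV against YNG. Of 6 radial glia and stem cell markers (Lpar1 34.8% of the sum, Eomes at 0 in at least 1 rat), 3 were higher in AV against YNG and 0 were lower in either treated group against AV by limma at the unadjusted threshold. Glul varied with this list at r 0.77 and Gfap at r 0.69. Of 7 granule cell markers 1 was lower in AV against YNG, the calbindin gene Calb1 (-0.62, adjusted p = 0.0133). Of 7 pericyte and smooth muscle markers 2 were higher in AV against YNG, and 2 were lower in AA and 2 in ADQ against AV, where 3.1% and 5.9% of all genes were lower. Of 6 choroid plexus markers 0 passed in AV against YNG by limma at the unadjusted threshold and 2 were lower in ADQ against AV, where 5.9% of all genes were, with Clic6, Kl, Folr1 and Otx2 at 0 in at least 1 rat. In AV against YNG 0 of 6 CA1 markers, 1 of 6 CA3 and mossy cell markers (lower) and 0 of 6 meningeal markers passed by limma at the unadjusted threshold. S100b varied with the CA1 list at r 0.615, Gja1 at r 0.48 and Gfap at r 0.44. Of 5 oligodendrocyte precursor markers only Bcan, which astrocytes also express, was lower in AV (-0.46, adjusted p = 0.0264), and of 3 tested ependymal markers Dnah12 was higher (1.62, adjusted p = 0.0175). The other 2 ependymal markers lay below 0 in AV against YNG, and the median of this list was -0.06. Rarres2 was 65.3% of its sum, and Pifo and Tmem212 were at 0 in at least 1 rat. S100b varied with the ependymal list at r 0.73, its highest value with any of the marker lists, Gja1 at r 0.65 and Slc1a3 at r 0.60. Of 9 immediate early genes 1 was higher in AV against YNG, 5 were higher in AA against YNG, where 12.6% of all genes were, and 6 in AA against ADQ, where 2.13% were. The part of these cell types in the differences of the 9 astrocyte genes was not tested.

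**Figure D4:**
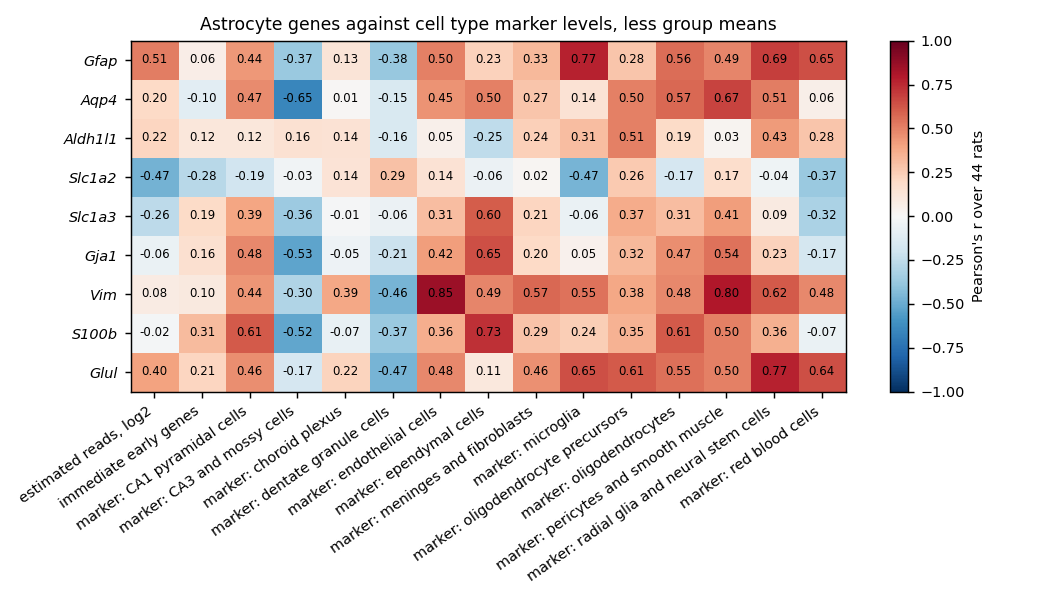
Pearson's r over 44 rats, less group means, of each astrocyte gene (rows) with the mean log2 level of each marker list and with the log2 number of estimated reads (columns). The highest value is that of Vim with endothelial markers (0.85), and Gfap is highest with microglia markers (0.77).

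The rats were split by their numbers into series a, the young rats up to V6 and the older rats up to 4011 (22 rats, of which 6 YNG, 6 AV, 5 AA and 5 ADQ) and series b, the later numbers (22 rats, of which 4 YNG, 6 AV, 6 AA and 6 ADQ). Nothing in the labels calls these batches, and the numbers are not 2 unbroken runs. The young rats are numbered apart from the older ones, and no label ties the young rats of a series to its older rats. Comparisons with YNG by series, and their interaction p values, rest on this pairing, which was made here. In series b the AV rats are numbered 4566 to 4572 and the AA and ADQ rats 4031 to 4110, with a wider gap between them than between the series, so group and run of numbers cannot be told apart there. In series a the AV rats run from 3890 to 4011 and the treated rats from 3983 to 4007. The difference of group effects between the series passed an unadjusted interaction p of 0.05 for 21.8% of all genes in AV against YNG, 17.3% in AA against YNG, 4.71% in AA against AV and 4.03% in ADQ against AV. For Gfap, the AV minus YNG log2 difference was 0.32 in series a and 0.61 in series b (interaction p = 0.336), and ADQ minus AV was -0.55 and -0.58 (interaction p = 0.919). For Vim, AV minus YNG was 1.30 in series a and 0.32 in series b, and the 2 differed (interaction p = 0.023, adjusted p = 0.154), while ADQ minus AV was -1.15 and -0.70. With series a alone, Gfap did not pass in AV against YNG (p = 0.178) or AA against AV (p = 0.166), and with series b alone Vim did not pass in AV against YNG (p = 0.26) or AA against AV (p = 0.0695). Both genes passed in ADQ against AV in either series, of which series a alone compares rats of overlapping numbers. Glul did not pass in AA against AV with series a alone (-0.11, p = 0.301) or in ADQ against AV with series b alone (-0.24, p = 0.075).

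Slc1a2, which did not differ between groups over all rats, differed between the series. Among YNG rats it had 3200 ± 687 normalized reads in series a and 6434 ± 638 in series b (SD, 6 and 4 rats), and these ranges did not overlap. The older groups lay between, with AV at 4449 ± 1497 and 4767 ± 818. Its AA minus YNG log2 difference was 0.51 in series a and -0.74 in series b (interaction p = 0.00052, adjusted p = 0.041), and AV minus YNG was 0.41 and -0.45. Gja1 was higher in AV than in YNG in series a (0.665) and at -0.09 in series b, and Aqp4 went from 0.39 to -0.17 in the same comparison.

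**Figure D5:**
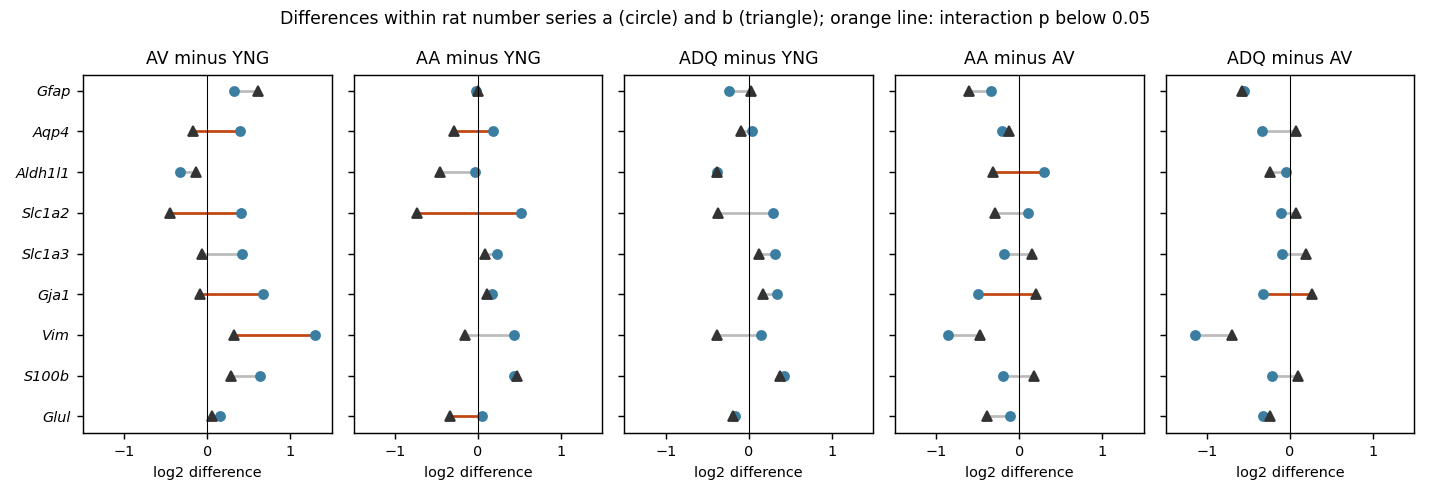
Log2 difference of each astrocyte gene within rat number series a (circle) and series b (triangle) for 5 comparisons; an orange line joins values whose interaction p was below 0.05. Gfap and Vim lie on the same side of 0 in both series in AV minus YNG, AA minus AV and ADQ minus AV, and Slc1a2 changes side in the comparisons with YNG.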

How the data were processed

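Poly(A) RNA of the DG of 44 rats was sequenced on an Ion instrument (the labels and the methods name different models). The authors aligned reads to rn6 with STAR 2.5.3a in Partek and deposited 1 table of signal values, that is, estimated reads per transcript row after median-ratio scaling (DESeq2), so no count model was used. The annotation is not given in the sources used here. The group of each older rat came from the deposited attributes table.

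The 24694 rows were summed to 18347 genes. For genes with a mean of at least 5, limma 3.58.1 was run on log2(value + 1) (R 4.3.3; empirical Bayes with a trend, 4 groups, no covariate, two-sided). The threshold was an unadjusted p below 0.05, with the Benjamini-Hochberg p over 15598 genes beside it. The fit was tested on simulated data. Most but not all low values were whole multiples of a step particular to each library, and the estimated depth rests on this step.

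Genes named beyond the 10 were the 3 of each list with the smallest p in older against YNG, any listed gene with an adjusted p below 0.05 in a comparison, the 3 nearest genes of each member, and the most abundant gene of each marker list. The members and lists were chosen with earlier results of these data known. All 8 motifs were searched before the capitals were limited to 4. Alternatives were other pseudocounts, filters, scalings, rows, samples and weights, the rat number series, and leaving out each rat. Counts of 6 gene lists by scaling, by series and without AV rat 3989, and of the pan-reactive list without Gfap and Vim, were added after seeing the data, and that rat was singled out after its values were seen. The RefSeq windows are of GRCr8, and no rn6 coordinates are given. Some results that the rule for named genes would give are not reported here.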

Additional observations from a re-analysis of the deposited data

Results flagged for a closer look

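In YNG, rat V6 stood apart in S100b at 25494 normalized reads, with a gap of 0.495 of the range of the 10 rats to the next rat, above the critical 0.466; the other 8 genes showed no such rat. Chance alone sets apart about 1 rat in 20 such groups, and 9 were examined, all in YNG. The older groups were not examined in this way, so no rat of theirs could be flagged. Among them, AV rat 3989 had 47312 normalized reads in S100b, and AV rat 4571 was next in that group with 30781.

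Group differences that differed between the rat number series by an interaction test (unadjusted p below 0.05 in 11 of 54 tests, adjusted p below 0.05 in 1) were these, given as series a minus series b on the log2 scale. Aqp4 differed by 0.557 in AV against YNG and 0.464 in AA against YNG. Slc1a2 differed by 0.856 in AV against YNG and 1.25 in AA against YNG, the latter with adjusted p = 0.041 by limma over all genes. Gja1 differed by 0.757 in AV against YNG, -0.705 in AA against AV and -0.594 in ADQ against AV. Vim differed by 0.975 in AV against YNG, and Aldh1l1 by 0.607 in AA against AV. Glul differed by 0.38 in AA against YNG and 0.365 in AA against ADQ. These tests are read against the share of all genes below the same unadjusted interaction p. Relative to YNG this share was 21.8% for AV, 17.3% for AA and 8.89% for ADQ. Relative to AV it was 4.71% for AA and 4.03% for ADQ, and between the treated groups 4.37%. What the series stand for was not tested.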

How the results depend on the processing

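Gfap, Vim and Glul remained the 3 genes lower in AA and in ADQ against AV without any single rat and under every pseudocount, filter, scaling, row choice and weighting tried; with series a or b alone some calls did not pass, as given above. Without single rats the count of genes past the threshold ran from 3 to 6 in AV against YNG, 1 to 3 in AA against YNG, 1 to 5 in ADQ against YNG and 2 to 5 in older against YNG, was 3 in AA and ADQ against AV and 0 in AA against ADQ, and the ratios past the threshold ran from 0 to 11.

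Array weights, which downweight variable libraries, gave 8 genes in AV, 5 in AA, 7 in ADQ and 7 in the older groups against YNG, with 49.3%, 45.3%, 51.9% and 55.5% of all genes passing, and Glul at -0.0116 in AV. Scaling to the total moved the median of all genes by 0.1 to 0.148 against YNG and the share of higher genes among all calls from 49.6% to 81.1% in AV against YNG, from 31.2% to 52.6% in AA against AV and from 36.7% to 47.8% in ADQ against AV (upper quartile scaling, 61% in AV against YNG). Scaling to the total gave 2 genes in AA and 4 in older against YNG, where 33.2% and 38.2% of all genes passed. It put Slc1a2 at 0.13 and Aqp4 at 0.0929 in AA, Gfap at 0.0041 in ADQ and Glul at 0.045 in older against YNG. Upper quartile scaling put Slc1a2 at 0.0124 and array weights at 0.175 in AA against YNG. The row of the highest mean gave 1 gene in ADQ against YNG and 5 ratios, and fitting 2 groups alone gave 4 genes in ADQ against YNG. Of all genes, 26.6% passed in ADQ against YNG with the row of the highest mean and 32.1% with 2 groups alone.

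Series a alone gave 0 genes in AA, 1 in ADQ and 4 in older against YNG and 0 ratios. Of all genes, 28.5%, 27.3% and 37.9% passed in these comparisons of series a, in the same order. Slc1a2 was at 0.514, Aqp4 at 0.177 and Glul at 0.0451 in AA against YNG. Slc1a2 was at 0.216 in AA against ADQ and Glul at 0.0109 in older against YNG. In series b alone 6.28% of all genes passed in AV against YNG, 12.4% in AA and 6.87% in ADQ (33.4% in series a in AV against YNG). Series b alone gave 2 genes in AV, 5 in AA, 0 in ADQ and 1 in older against YNG, 1 in AA against ADQ and 0 ratios. For older against YNG and AA against ADQ, 8.78% and 4.15% of all genes passed in series b. The AV minus YNG values of series b were -0.0921 for Gja1, -0.445 for Slc1a2, -0.169 for Aqp4 and -0.0621 for Slc1a3. Gfap was 0.0236 and Slc1a2 -0.368 in ADQ against YNG, and Gja1 0.205 in AA against AV. In older against YNG Slc1a2 was -0.517 and Vim -0.0701. The cause was not tested. Leaving out 1 rat changed the sign of Slc1a2 or Aqp4 in 13 fits, in none of which the gene passed: Slc1a2 ran from -0.00925 to 0.193 in AV, -0.115 to 0.0626 in AA, -0.0109 to 0.167 in ADQ and -0.045 to 0.132 in older against YNG, and Aqp4 from -0.103 to 0.000962 in AA against YNG.

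Of 111 single differences, 57 never passed under any setting and 40 of these changed sign in at least 1. No paired analysis was possible because the groups hold different rats and the labels give no number that ties them, the replicate numbers used here being in accession order.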
